A study of Mus musculus with 12 samples.

Results

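The comparison described here set a B cell lymphoma line from Eµ-myc mice, kept in interferon-γ (IFN-γ) for 24 h, against the same line given IFN-γ for 1 h, in which the cytokine was then blocked by antibody. It used 6 of the 12 RNA-seq libraries of the series, 3 per exposure, chosen by the exposure time in their titles, and covered every gene that passed a filter on low counts. In Eµ-myc cells the Myc oncogene is under an immunoglobulin heavy chain enhancer, and the line is on a C57BL/6 background, so every group carries the transgene. Both groups received recombinant mouse IFN-γ at 5 ng/mL. In the 1 h group a neutralising antibody to mouse IFN-γ, at 50 µg/mL, ended the stimulation and, per the series' design text, collection was at 24 h post stimulation. The other groups, unstimulated cells and a 6 h exposure ended in the same way, are given only as reference values. The labels do not say whether the 24 h or the unstimulated cells were also given antibody, whether the 3 libraries of a group came from separate cultures, or when unstimulated cells were collected. Length of exposure and presence of antibody cannot be told apart in this comparison, and p-values measure only the spread between these libraries, which may be technical.

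IFN-γ binds a receptor that activates the kinases JAK1 and JAK2, and their signal acts on genes through GAS elements in promoters. IRF1, itself induced in this way, and other interferon regulatory factors extend the response at related elements, and feedback inhibitors such as SOCS1 shut it down. In B lineage cells IRF4 and IRF8, of the same family, also act in development, together with PAX5 and EBF1, which hold the B cell programme, and BCL6, a repressor of germinal centre B cells.

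The 24 h libraries held 55520205 to 67096610 counts and the 1 h libraries 57780363 to 60966363. The line expressed the defining B lymphocyte gene Ighm, the IgM heavy chain, in both groups, at 2891 ± 16.6 CPM (the count scaled to library size, with TMM factors; mean ± SD, n = 3) after 24 h and 2873 ± 37.1 CPM after 1 h. Cd79a, a signalling chain of the B cell receptor, stood at 343 ± 21.1 and 352 ± 13.6 CPM. Of 14299 genes tested with edgeR, 1452 (10.2%) were higher after 24 h than after 1 h and 1255 (8.78%) were lower at an adjusted p under 0.05, the rule for every call below. Most differences were small. Among the 2707 called genes (18.9%) the median absolute log2 fold change was 0.302, and 1903 of them (70.3%) differed by less than 0.5 on the log2 scale. At least 2-fold differences were counted for 300 genes higher (2.1%) and 73 lower (0.511%), and the median over all genes tested was -0.005. For 17.8% of all genes tested the 3 values after 24 h lay above the 3 after 1 h, and for 17.7% below them. Without 1 h replicate 2 the count of lower genes was 744. Between the 1 h and unstimulated libraries 60 genes (0.42%) were called. That comparison shares the 1 h libraries with the main one, so unstimulated levels are given beside some of the members, for reference only. In bulk RNA, fewer cells of a type and less transcript per cell cannot be told apart.

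**Figure D1:**
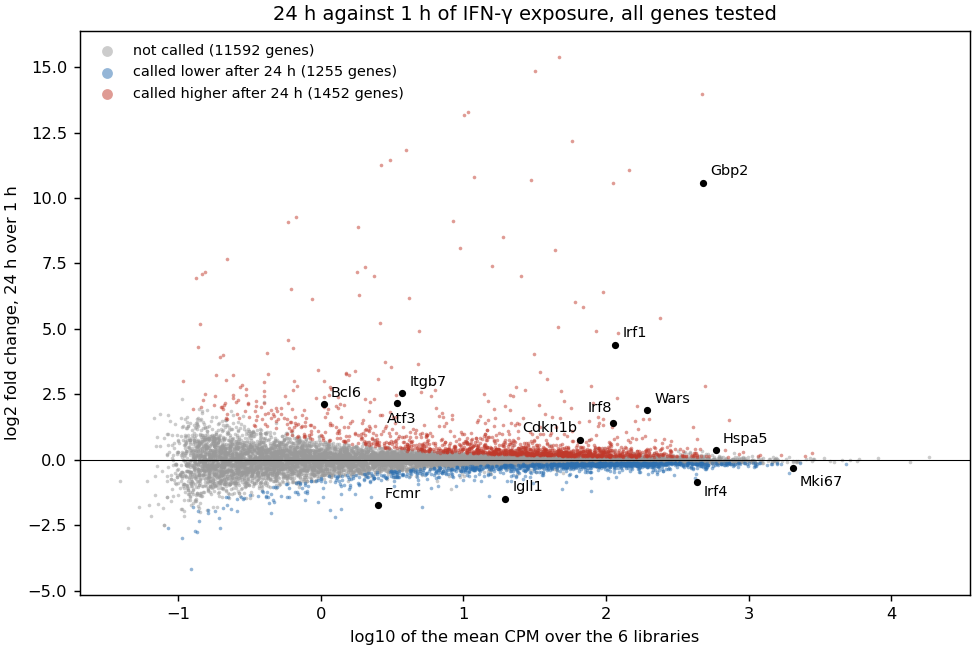
Log2 fold change of 24 h over 1 h (y axis) against the log10 of the mean CPM over the 6 libraries (x axis), one point per gene tested, red for the 1452 called higher, blue for the 1255 called lower and grey for the rest. The rises reach further from 0 than the falls, and the labelled genes, chosen after their values were seen, are described in the text.

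The direct IFN-γ response separated the groups and serves as a check of the labels. Of 36 listed genes of the core response 35 were tested, and 34 of these were higher after 24 h, with a median log2 fold change of 2.347. Irf1 (ENSMUSG00000018899.16, chromosome 11, 53770014 to 53778374 on GRCm38) was at 231, 215 and 218 CPM in the 24 h libraries and 10.3, 10.3 and 10.8 CPM in the 1 h libraries, 10.6 CPM being the unstimulated mean. The groups lay far apart, by 4.40 ± 0.06 on the log2 scale (SE; edgeR adjusted p = 8.79e-30). The remaining tested member, the chemokine Cxcl10 (chosen after its value was seen), was at 0.373 ± 0.121 and 0.114 ± 0.0735 CPM (adjusted p = 0.053). Lists of stress, proliferation, metabolism and B cell genes were then counted in the same way, and a share called is to be read against the 10.2% and 8.78% over all genes.

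**Figure D2:**
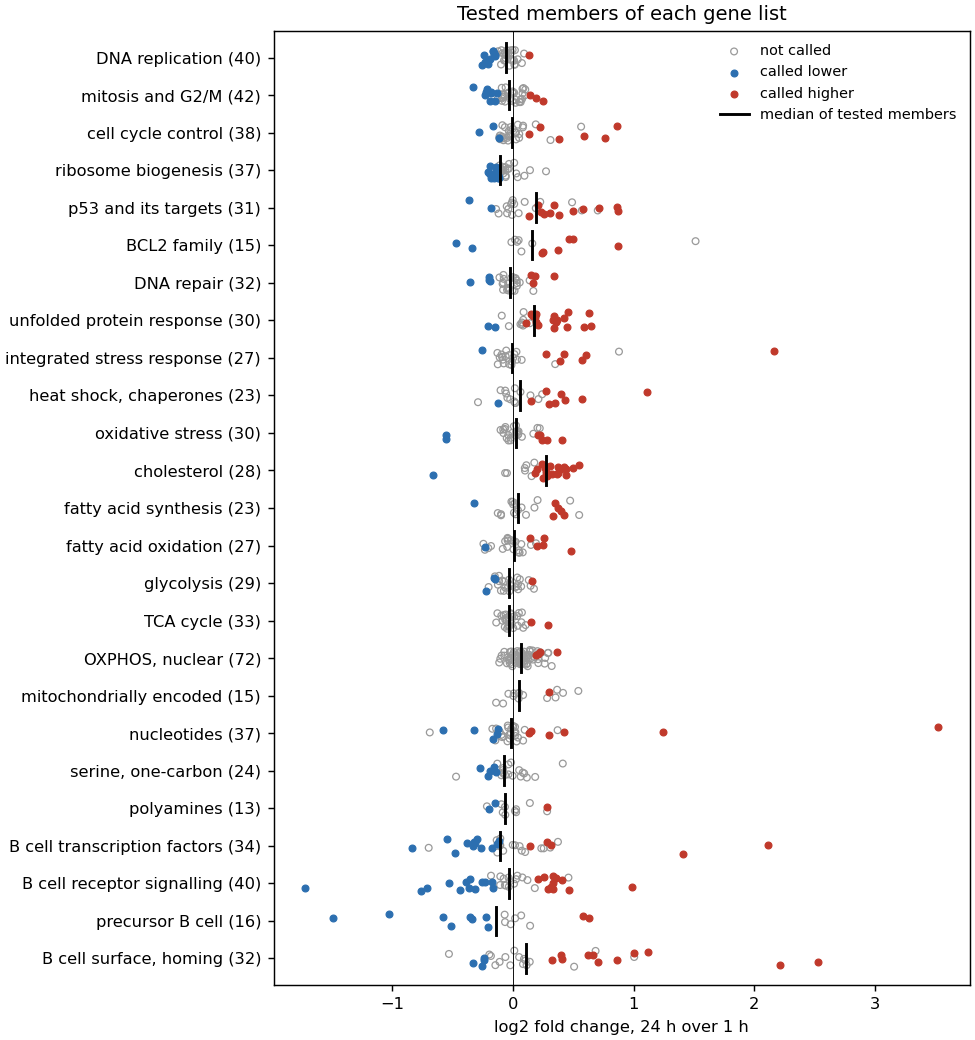
Log2 fold change of 24 h over 1 h (x axis) for each tested member of 25 gene lists (rows, number tested in brackets), filled red or blue where called higher or lower and open where not called, with a black bar at the list's median. The medians lie between -0.137 for precursor B cell genes and 0.274 for cholesterol genes, and most members differ by less than 1.

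Genes of protein folding in the endoplasmic reticulum were mostly higher after sustained exposure. The unfolded protein response is the set of pathways by which ATF6, IRE1 with its target XBP1, and PERK raise folding capacity when unfolded protein builds up. All 30 listed members were tested, 19 were higher (63.3%) and 2 lower, and the median log2 fold change was 0.174 against -0.005 over all genes tested. Hspa5 (ENSMUSG00000026864.13, chromosome 2, 34771970 to 34777547), the main chaperone of the compartment, measured 672, 669.6 and 631 CPM after 24 h and 511, 515 and 513 CPM after 1 h. Every 24 h value was above every 1 h value and above the unstimulated mean of 531 CPM, and the difference was 0.36 ± 0.04 (SE; adjusted p = 3.7e-07). Creld2, a folding factor induced by endoplasmic reticulum stress, measured 25.6, 27.2 and 28.1 CPM against 15.6, 17.6 and 18.3 CPM, a log2 difference of 0.65 ± 0.08 (adjusted p = 1.94e-07). Sdf2l1, a partner of HSPA5, was at 20.3 ± 1.11 CPM against 13.1 ± 0.807 CPM, a log2 difference of 0.63 ± 0.07. Chosen after their values were seen, the disulfide isomerases Pdia3 and Pdia4 were higher by 0.45 ± 0.04 and 0.45 ± 0.04, the lectin chaperone Calr by 0.37 ± 0.04 and Xbp1 by 0.34 ± 0.09. The sensor Atf6 and the degradation adaptor Sel1l were the 2 members lower, at -0.15 ± 0.05 and -0.21 ± 0.05. The call for Atf6 was lost when any 1 of the 6 libraries compared was left out (adjusted p 0.055 to 0.11), and that for Wfs1, at 0.59 ± 0.18, without any 1 of the 1 h libraries or without 24 h replicate 3 (adjusted p 0.0509 to 0.157).

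The ER stress response element was searched for in these promoters because ATF6 binds it in the genes of this group. The search used CCAAT and CCACG with any 9 bases between them on both strands of the 250 bases upstream of each RefSeq start (GRCm38.p6), and it was chosen with the values known. Of 19 members called higher, 17 had an entry in the promoter table and 8 of these (47.1%) held the element, as did 17 of 9451 tested genes with an entry (0.18%) and 35 of 27025 genes of the whole table (0.13%). Among all tested members the count was 9 of 24 (37.5%), the ninth being Syvn1, which was not called. The members were listed as known genes of this response, and the tested genes include them. The contrast with all tested genes therefore does not bear on the exposure. The elements of 4 genes higher after 24 h, picked for this display after their values were seen, are shown on the gene's own strand, 5′ to 3′, with the match in capitals.
Hspa5, chr2:34772019-34772048, + strand: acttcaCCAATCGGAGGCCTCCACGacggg
Creld2, chr15:88819499-88819558, + strand: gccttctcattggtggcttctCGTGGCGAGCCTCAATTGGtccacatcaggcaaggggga
Calr, chr8:84847055-84847114, - strand: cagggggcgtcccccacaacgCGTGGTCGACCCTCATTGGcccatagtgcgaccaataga
Hsp90b1, chr10:86705513-86705572, - strand: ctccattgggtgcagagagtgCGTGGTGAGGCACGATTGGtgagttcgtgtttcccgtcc
The match began 65 bases before the start site in Hspa5, 126 in Creld2 and 162 in Calr. Hsp90b1, which encodes the chaperone GRP94, held 2 matches, of which the one nearer the start is shown. A match describes these letters only and shows no binding. Hsp90b1 transcript was higher by 0.18 ± 0.04 on the log2 scale (adjusted p = 0.00244), less than the other 3 genes shown.

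**Figure D3:**
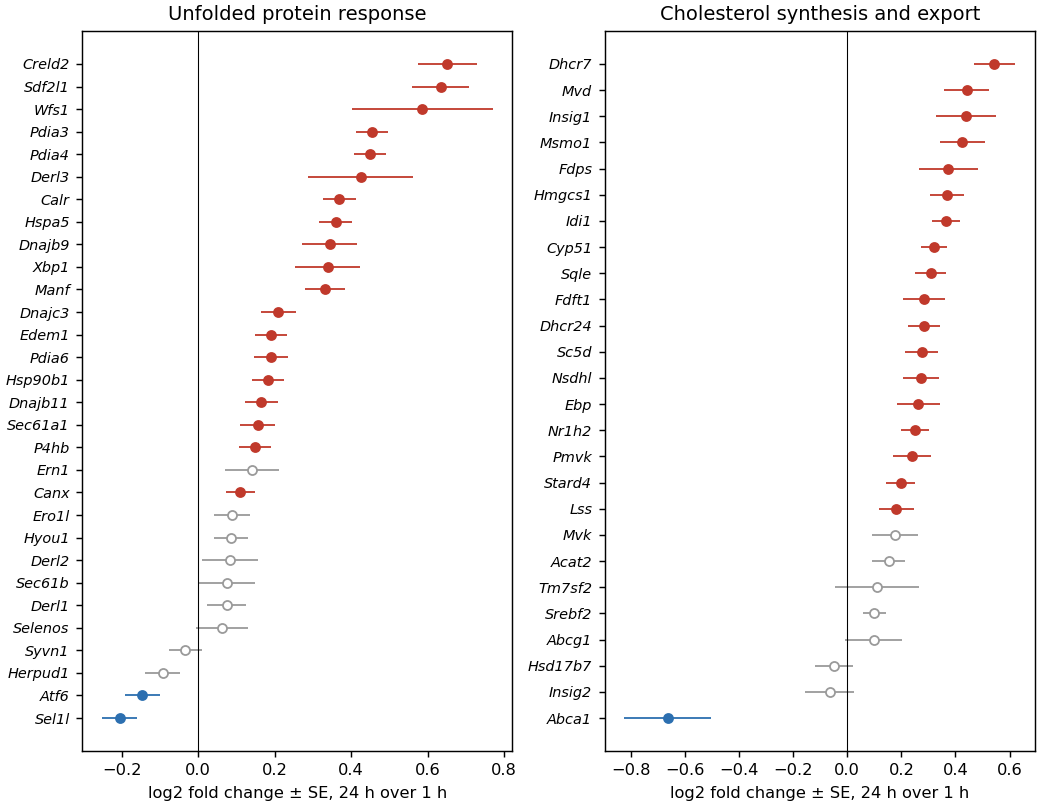
Log2 fold change of 24 h over 1 h with its standard error (x axis) for the 30 tested genes of the unfolded protein response (left) and 26 of the 28 of cholesterol synthesis and export (right), filled red or blue where called and open where not. Most members lie to the right of 0 in both panels, with 19 and 18 of those shown called higher.

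In the other stress lists fewer members were called. In the integrated stress response, in which kinases that phosphorylate eIF2α favour translation of ATF4, 27 of 34 listed genes were tested, 6 were higher, 1 was lower and the median was -0.008. Atf3, a stress-induced transcription factor, measured 6.28, 5.51 and 5.16 CPM after 24 h and 0.949, 1.07 and 1.75 CPM after 1 h, a log2 difference of 2.16 ± 0.21 (adjusted p = 4.94e-09). Ddit4, an inhibitor of mTORC1, measured 44.1, 44.5 and 49.9 CPM against 27.7, 30.6 and 33.0 CPM, a log2 difference of 0.60 ± 0.08. Atf4 itself was at 167 ± 12.2 and 178 ± 2.95 CPM (adjusted p = 0.2, and called lower at 0.0258 without 24 h replicate 3), and the ATF4 target Slc7a5, an amino acid transporter, was lower, at -0.26 ± 0.05 (adjusted p = 0.000202). Ddit3, which encodes CHOP, was higher by 0.39 ± 0.13 (adjusted p = 0.0335). That call was lost without any 1 of the 24 h libraries and without 1 h replicate 2 or 3 (adjusted p 0.0603 to 0.152). In the heat shock list 23 of 25 genes were tested, 8 were higher and 1 lower, and the median was 0.062. The 1 lower call, that of Hspa9, was lost in 9 of 12 leave-one-out fits, among them each that left out a 24 h library. The small heat shock protein gene Hspb1 measured 2.88, 2.75 and 3.32 CPM against 1.48, 1.37 and 1.31 CPM, higher by 1.11 ± 0.20, and Hspa4l, a chaperone of the HSP110 type, was higher by 0.57 ± 0.06.

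Of 32 listed genes of the oxidative stress response 30 were tested, 5 were higher and 2 lower, with a median of 0.024. The regulator was among the 5 higher members, and the 2 lower members were both target genes of it. Nfe2l2, which encodes the activator NRF2, was higher, at 144, 154 and 148 CPM against 114, 112 and 111 CPM (0.41 ± 0.04, adjusted p = 7.58e-09), and so was Keap1, its inhibitor (0.29 ± 0.06). Gclc, the catalytic subunit of the first enzyme of glutathione synthesis and an NRF2 target, measured 353, 339.9 and 341 CPM after 24 h and 518, 503 and 500.4 CPM after 1 h. This was a log2 difference of -0.56 ± 0.04 (adjusted p = 2.29e-11), and the unstimulated mean of 466 CPM lay above the 24 h values. The heme oxygenase Hmox1, another NRF2 target, was lower, at -0.55 ± 0.08, with 12.2 ± 0.969 CPM after 24 h, 17.8 ± 0.875 CPM after 1 h and 19.8 CPM in unstimulated cells. The thioredoxin gene Txn1 was higher by 0.24 ± 0.05. Its unstimulated mean of 187 CPM lay between the group means of 205 and 174 CPM, and neither group was called against unstimulated cells.

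Genes that brake the cell cycle or favour apoptosis were among those higher after 24 h. p53 is activated by DNA damage and other stress and raises cell cycle inhibitors and pro-apoptotic BCL2 proteins. Of 34 listed genes, p53 and its known targets, 31 were tested, 12 were higher, 2 lower (1 without 1 h replicate 2 or 24 h replicate 1) and the median was 0.189. Cdkn1a, which encodes the inhibitor p21, measured 4.96, 4.86 and 4.67 CPM against 2.94, 2.32 and 2.71 CPM, a log2 difference of 0.86 ± 0.15 (adjusted p = 5.76e-05). Its unstimulated mean, 3.49 CPM, lay between the groups. Trp53inp1, which promotes p53 activity, measured 362, 362 and 342 CPM against 214, 216 and 221 CPM, and the 1 h libraries were themselves above the unstimulated mean of 185 CPM (adjusted p = 0.0384). Trp53 was at 198 ± 11.6 and 215 ± 15.1 CPM (adjusted p = 0.141). The target and p53 antagonist Mdm2, chosen after its value was seen, was at 98.2 ± 2.57 and 98.3 ± 2.86 CPM (adjusted p = 0.986).

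In the BCL2 family 15 of 21 listed genes were tested, 6 were higher, 2 lower and the median was 0.16. The pro-apoptotic members Pmaip1, Bbc3 and Bak1 were higher by 0.87 ± 0.13, 0.50 ± 0.11 and 0.46 ± 0.05, and Bak1, the effector that opens the mitochondrial outer membrane, measured 115, 123 and 127 CPM against 83.2, 92.4 and 89.7 CPM. Among survival genes Mcl1 was higher, 459.6 ± 9.43 against 386 ± 3.71 CPM (0.25 ± 0.04, adjusted p = 1.01e-05). Bcl2 was lower, at -0.47 ± 0.14 and Bcl2l1 lower, at -0.34 ± 0.12, but neither call was firm. That for Bcl2 was lost without 1 h replicate 1 or 2 or 24 h replicate 2 or 3 (adjusted p 0.0641 to 0.0999). That for Bcl2l1 was lost without 1 h replicate 2 or 3, any 1 of the 24 h libraries or 6 h replicate 2, and with limma-voom (adjusted p 0.0502 to 0.265). Bcl2l1 averaged 5.19 CPM after 24 h, 6.58 CPM after 1 h and 5.74 CPM in unstimulated cells, against which neither group was called. Pmaip1 and Bbc3 also stand in the p53 list.

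Among cell cycle regulators, 38 of 41 tested, 6 were higher and 3 lower, with a median of -0.009. The 6 include Cdkn1a, which is also counted in the p53 list. Without 1 h replicate 3 or 24 h replicate 1 the lower count was 1. Cdkn1b, which encodes the inhibitor p27, measured 84.6, 80.5 and 84.6 CPM after 24 h and 49.6, 46.2 and 51.3 CPM after 1 h, a log2 difference of 0.76 ± 0.06 (adjusted p = 8.6e-12). The unstimulated mean of 46.9 CPM was near the 1 h values. Mxd1, an antagonist of MYC for its partner MAX, was higher by 0.59 ± 0.07, and the kinase gene Wee1, which delays mitosis, was lower, at -0.28 ± 0.06. Ccnd1, a cyclin of G1 chosen after its value was seen, was higher by 0.38 ± 0.04. Ccnd2 had 12 counts over the 24 h and 6 over the 1 h libraries and was not tested. Myc was at 1622, 1675 and 1774 CPM after 24 h and 1669, 1709 and 1810.3 CPM after 1 h, overlapping values with a log2 difference of -0.03 ± 0.04 (adjusted p = 0.654).

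Among replication and mitosis genes more were lower than higher, by small amounts. All 40 genes of DNA replication were tested, 12 were lower and 1 higher, with a median of -0.061. The higher count was 0 without any 1 of the 1 h libraries or 24 h replicate 2 or 3. The largest falls were those of Gins2 and Mcm3, subunits of the replicative helicase, at -0.25 ± 0.06 and -0.24 ± 0.04. Mcm3 measured 436, 426 and 442 CPM against 506, 524 and 511 CPM (adjusted p = 2.75e-05). The replication clamp Pcna was at 456 ± 19.5 and 480.3 ± 5.25 CPM (adjusted p = 0.257). Of 42 genes of mitosis and G2/M, all tested, 9 were lower and 3 higher, with a median of -0.031. The proliferation marker Mki67 measured 1878, 1859.8 and 1664 CPM after 24 h and 2386, 2159 and 2235 CPM after 1 h, a log2 difference of -0.33 ± 0.05 (adjusted p = 7.61e-06). Its unstimulated mean was 1973 CPM, between the group means, and against unstimulated cells neither group was called (adjusted p = 0.056 for 24 h and 0.067 for 1 h). Top2a, the topoisomerase of chromosome segregation, and Cenpa, the centromeric histone, were higher instead, by 0.19 ± 0.04 and 0.25 ± 0.04.

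**Figure D4:**
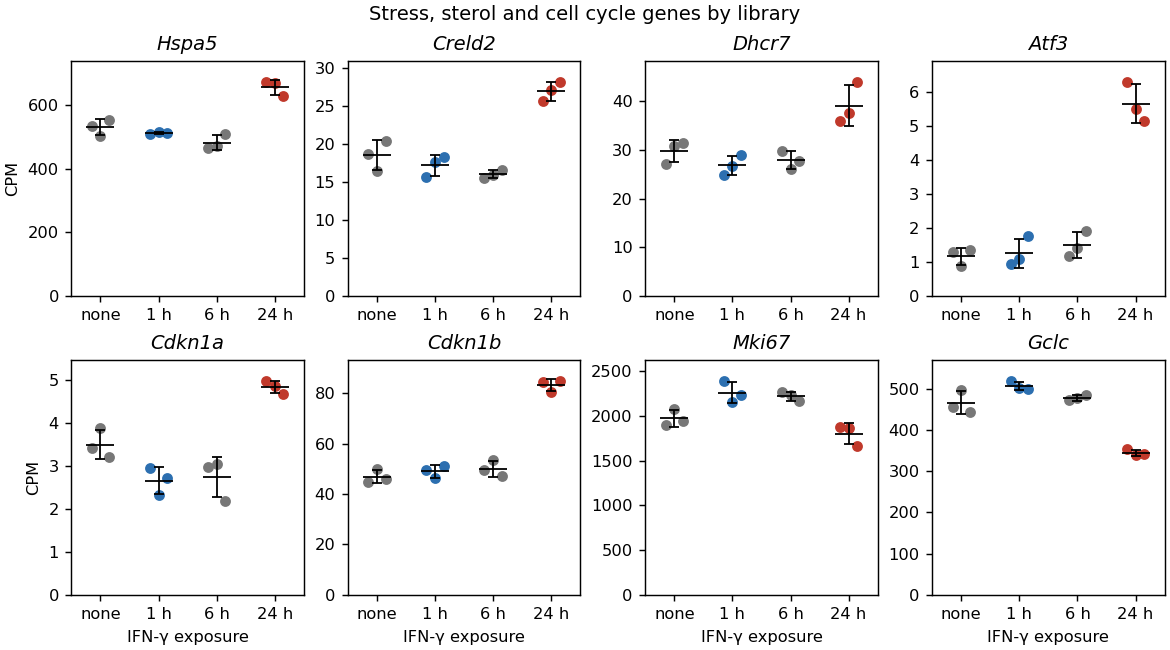
CPM (y axis) of 8 stress, sterol and cell cycle genes in each library by IFN-γ exposure (x axis), with points for libraries and bars for the mean ± SD (n = 3), red for 24 h, blue for 1 h and grey for groups given as reference. The 24 h libraries stand apart from the 1 h libraries in each panel, upward for 6 genes and downward for Mki67 and Gclc. The naming rule required this of Creld2, Dhcr7, Atf3 and Gclc.

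Ribosome biogenesis, a process that MYC drives, had more members lower than higher. Of 38 listed genes 37 were tested, 15 were lower and 0 higher by edgeR, against 3 higher at an unadjusted p under 0.05 and 0 with DESeq2 or limma-voom. Other edgeR fits called members higher, 2 with the 6 libraries fitted alone and 1 without 6 h replicate 3, without unstimulated replicate 2, with the filter of at least 1 count or with a replicate block. The median was -0.105, and the largest falls were near -0.20 ± 0.05, the value of Rrp12, an export factor of ribosomal subunits (adjusted p = 0.00487, 0.0704 without 1 h replicate 2). Ppan, a subunit assembly factor, measured 191, 185 and 192 CPM against 210.3, 218 and 222 CPM (-0.20 ± 0.04, adjusted p = 0.00121), and the nucleolar protein gene Ncl, chosen after its value was seen, was lower, at -0.18 ± 0.04. The count of lower genes was 6 without 1 h replicate 2, 8 without 24 h replicate 1 and 9 without 1 h replicate 1 or 24 h replicate 2. The repair genes, 32 tested, had 4 higher and 4 lower, with the damage kinase gene Atm higher by 0.34 ± 0.06 and the end-joining ligase gene Lig4 lower, at -0.36 ± 0.05. The repair genes called higher were 2 without 1 h replicate 2, 24 h replicate 1 or 24 h replicate 2, and those called lower were 6 with DESeq2.

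Genes of cholesterol synthesis were mostly higher after 24 h. Sterol synthesis and uptake are governed by SREBP2, which is released to the nucleus when membrane cholesterol is low. Of 30 listed genes 28 were tested, 20 were higher (71.4%), 1 lower, and the median was 0.274. Dhcr7 (ENSMUSG00000058454.15, chromosome 7, 143823145 to 143848410), the last enzyme of the pathway, measured 36.0, 37.5 and 43.9 CPM against 24.9, 26.7 and 28.9 CPM (0.54 ± 0.08, adjusted p = 4.57e-06). Mvd, of the mevalonate arm, was higher by 0.44 ± 0.08. Abca1, which exports cholesterol, was the 1 member lower, at 2.95, 2.02 and 2.53 CPM against 4.08, 3.97 and 3.85 CPM (-0.66 ± 0.16, adjusted p = 0.00342). Srebf2, which encodes SREBP2 and was chosen after its value was seen, was at 172 ± 4.49 and 161 ± 3.08 CPM (adjusted p = 0.103). Without 24 h replicate 3 the count of higher members was 13. In promoters, the sterol element TCACNCCAC, searched on both strands, was found in 1 of 13 called members with an entry, Hmgcs1 (named after its value was seen), and in 1.22% of tested genes.

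In the fatty acid lists fewer members were called. In fatty acid synthesis 23 of 24 genes were tested, 5 were higher, 1 lower and the median was 0.041. The desaturase gene Scd2 measured 495, 525 and 546 CPM against 374, 377 and 420.0 CPM (0.42 ± 0.05, adjusted p = 1.19e-07). The acyl-CoA synthetase genes Acsl5 and Acsl1 differed in opposite directions, by 0.37 ± 0.04 and -0.33 ± 0.05. Fasn, the synthase itself, was at 630.0 ± 22 and 636 ± 32.7 CPM (adjusted p = 0.897). Of 27 tested genes of fatty acid oxidation, 29 listed, 5 were higher, 1 lower and the median was 0.006, and the triglyceride lipase gene Pnpla2 was higher by 0.48 ± 0.05. Cd36, a fatty acid transporter, was higher after 24 h than after 1 h by 0.25 ± 0.06, but its 24 h mean of 41.5 CPM was near the unstimulated mean of 43.4 CPM, and the 1 h mean of 34.8 CPM was the one below it (adjusted p = 0.0169). The call between 24 h and 1 h was lost without 24 h replicate 1 (adjusted p = 0.0513).

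Few genes of central carbon metabolism were called, at shares near or below those over all genes. In glycolysis 29 of 32 genes were tested, 1 was higher, 3 lower and the median was -0.033. The lower count was 1 without 1 h replicate 2 or 24 h replicate 1 or 2, and 5 without 24 h replicate 3. Ldha measured 1977, 1904 and 2018 CPM against 2051, 2154 and 2072 CPM (adjusted p = 0.137), and Gapdh was at 1216 ± 80.5 and 1317 ± 23.0 CPM (adjusted p = 0.068, called lower with limma-voom at 0.0431 and without 24 h replicate 3 at 0.00837). The lactate transporter Slc16a1 was lower, at -0.22 ± 0.04. Of 33 citric acid cycle and related genes, all tested, 2 were higher, and the median was -0.031. The count was 1 in 8 of 12 leave-one-out fits, the exceptions being those without 1 h replicate 3, 6 h replicate 1 or 3 or unstimulated replicate 2. Of 72 nuclear genes of oxidative phosphorylation, all tested, 4 were higher, led by Ndufa1 at 0.36 ± 0.09, and the median was 0.069. The count changed with the libraries used. It was 0 without 1 h replicate 3 or 24 h replicate 3, 1 without 1 h replicate 2, 7 without 6 h replicate 1 or unstimulated replicate 2, 8 without 6 h replicate 3 and 14 when the 6 libraries were fitted alone. The call for Ndufa1 was lost without 1 h replicate 3 or 24 h replicate 3 (adjusted p = 0.0551 and 0.0765). Transcripts of the mitochondrial genome had a median of 0.051 over 15 tested, and 1, the ribosomal RNA mt-Rnr1, was higher by 0.30 ± 0.08. Its call was lost without any 1 of the 24 h libraries, 1 h replicate 3 or 6 h replicate 3 (adjusted p 0.0574 to 0.0888). The number of these transcripts called higher was 6 without 1 h replicate 1, 3 with the filter of at least 1 count or the 6 libraries alone, 2 without unstimulated replicate 2 or 3, and 0 without 1 h replicate 3, 24 h replicate 1 or 2 or 6 h replicate 3.

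Enzymes known as IFN-γ targets held large differences. Of 21 listed, 10 were tested, 5 were higher and 2 lower, and the median was 0.381. The lower count was 1 in 11 of 12 leave-one-out fits, the exception being that without 6 h replicate 3. Wars, the cytoplasmic tryptophanyl-tRNA synthetase, measured 302, 308 and 311 CPM after 24 h and 79.3, 85.7 and 84.2 CPM after 1 h, a log2 difference of 1.89 ± 0.04 (adjusted p = 3.48e-24), while unstimulated cells averaged 82.0 CPM. Nampt, the rate-limiting enzyme of NAD salvage, measured 281, 283 and 268 CPM against 171, 168 and 157 CPM, a log2 difference of 0.74 ± 0.04. Acod1, which makes itaconate and was chosen after its value was seen, was at 1.71 ± 0.321 CPM after 24 h and had 4 counts over the 1 h libraries. In the nucleotide list 37 of 38 genes were tested, 6 were higher, 5 lower and the median was -0.017. Samhd1, which hydrolyses deoxynucleotides and restricts viruses, measured 554, 580.2 and 580.5 CPM against 235, 239.7 and 249 CPM (1.24 ± 0.04, adjusted p = 5.96e-20), and Cmpk2, a mitochondrial nucleotide kinase, was higher by 3.52 ± 0.22. The 5 lower calls of this list were all lost without 1 h replicate 2, and leaving out another of the 6 libraries compared left 1 to 3. Of 24 tested genes of serine and one-carbon metabolism, 26 listed, 5 were lower, with a median of -0.073. Mthfd1l, of mitochondrial formate production, was lower, at -0.27 ± 0.04, and Shmt2, the mitochondrial serine hydroxymethyltransferase, at -0.19 ± 0.04. In the polyamine list, 13 tested, 1 was higher, 2 lower and the median was -0.064. Sat1 was higher by 0.28 ± 0.07 (edgeR adjusted p = 0.00747, 0.051 without 24 h replicate 3). Srm was lower, at -0.20 ± 0.04, and so was Azin1, at -0.15 ± 0.04. The call for Azin1 was lost without 1 h replicate 1 or 2 or 24 h replicate 3 (adjusted p 0.0635 to 0.0987). Odc1, the first enzyme and a MYC target, was at 708 ± 20.7 and 757 ± 33.6 CPM (adjusted p = 0.166).

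Among B cell transcription factors more were lower than higher. Of 36 listed, 34 were tested, 12 were lower, 5 higher and the median was -0.108. Irf4 (ENSMUSG00000021356.10, chromosome 13, 30749226 to 30766976) measured 316, 315 and 301 CPM after 24 h and 545, 547 and 574 CPM after 1 h, a log2 difference of -0.84 ± 0.04 (adjusted p = 2.22e-15). Unstimulated cells averaged 455 CPM, above the 24 h and below the 1 h libraries (adjusted p = 3.22e-11 and 0.000416). Irf8 (ENSMUSG00000041515.9, chromosome 8, 120736358 to 120756694), its close relative, went the other way, at 163, 160.3 and 166 CPM against 61.9, 60.8 and 61.5 CPM, a log2 difference of 1.41 ± 0.06 (adjusted p = 3.01e-16), with 61.6 CPM in unstimulated cells. Bcl6 was low in each group but higher after 24 h, at 1.54, 1.59 and 1.98 CPM against 0.316, 0.501 and 0.359 CPM (2.11 ± 0.30, adjusted p = 3.77e-06). Both factors that hold the B cell programme were lower. Pax5 measured 500.1, 506 and 474 CPM against 613, 607 and 629 CPM (-0.32 ± 0.05, adjusted p = 8.2e-05). Ebf1 measured 177, 173 and 176 CPM against 255, 239.8 and 240.2 CPM (-0.48 ± 0.05, adjusted p = 6.36e-09). Unstimulated cells averaged 208 CPM, above the 24 h and below the 1 h libraries, by -0.246 and 0.235 on the log2 scale (edgeR adjusted p = 0.00034 and 0.0175). Mef2c, a factor downstream of the B cell receptor, was lower, at -0.55 ± 0.07, and Rel, an NF-κB subunit, was higher by 0.32 ± 0.06.

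GAS elements, described above, were searched for as TTCNNNGAA in the same 250 base windows, again with the values known. The pattern is palindromic, so both strands are covered at once. It was present in 2 of 4 B cell factors called higher that had an entry, Irf8 and Bcl6, in 3 of 9 called lower (33.3%), in 6 of 26 core response genes (23.1%) and in 6.81% of 9451 tested genes. Over all tested B cell factors with an entry the pattern stood in 6 of 28 (21.4%). In the other B cell lists it was rare among tested members with an entry. It stood in 0 of 30 B cell receptor genes, 1 of 20 surface genes (5%, Icam1) and 1 of 12 precursor genes (8.33%). The interferon-stimulated response element, GAAA, any 2 bases and GAAA again, was present in 10 of the 26 core genes (38.5%) and in 3.16% of tested genes. Among B cell factors with an entry this element stood in 0 of 4 called higher and 2 of 9 called lower (22.2%). Windows from Irf8 and Bcl6 are set beside those of Irf1 and of the adhesion gene Icam1, with matches in capitals on the gene's own strand.
Irf8, chr8:120736161-120736220, + strand: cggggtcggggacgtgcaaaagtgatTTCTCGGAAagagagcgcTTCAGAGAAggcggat
Bcl6, chr16:23988937-23988996, - strand: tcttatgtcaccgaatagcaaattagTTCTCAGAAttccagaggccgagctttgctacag
Icam1, chr9:21015872-21015931, + strand: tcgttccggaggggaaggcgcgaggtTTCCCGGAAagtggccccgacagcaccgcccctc
Irf1, chr11:53769898-53769957, + strand: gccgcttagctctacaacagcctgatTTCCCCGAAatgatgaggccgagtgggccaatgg
The Irf8 window held 2 matches, the first of which began 171 bases before the start site. Bcl6 has more than one start in the table, and the window shown begins its match 118 bases before one of them. All 4 genes were higher after 24 h, but the pattern also stood before genes that were lower, and a match shows no binding.

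Among genes of precursor B cells more were lower than higher. Of 22 listed, 16 were tested, 8 were lower, 2 higher and the median was -0.137. Igll1, the lambda5 part of the surrogate light chain, measured 11.5, 9.71 and 9.71 CPM after 24 h and 30.7, 30.1 and 26.0 CPM after 1 h, a log2 difference of -1.49 ± 0.08 (adjusted p = 3.87e-14), and unstimulated cells averaged 26.9 CPM. Its partner Vpreb1 measured 6.14, 5.04 and 6.32 CPM against 11.7, 12.6 and 11.4 CPM, a log2 difference of -1.02 ± 0.10 (adjusted p = 8.78e-09). Il7r, the receptor of the growth factor of B cell precursors, measured 245, 237 and 234 CPM against 365, 354 and 351 CPM, a log2 difference of -0.58 ± 0.05. In all 3 genes every 24 h library was below every 1 h library, which the naming rule required of Vpreb1 and Il7r. Cd24a, chosen after its value was seen, was lower, at -0.52 ± 0.04. The recombinase gene Rag1 was at 319.5 ± 3.03 and 324 ± 11.7 CPM (adjusted p = 0.895), both above the unstimulated mean of 232 CPM (adjusted p = 0.000283 for 24 h and 0.00746 for 1 h). Higher in this list were Spn, which encodes CD43, by 0.63 ± 0.05, and the factor Sox4 by 0.58 ± 0.13.

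**Figure D5:**
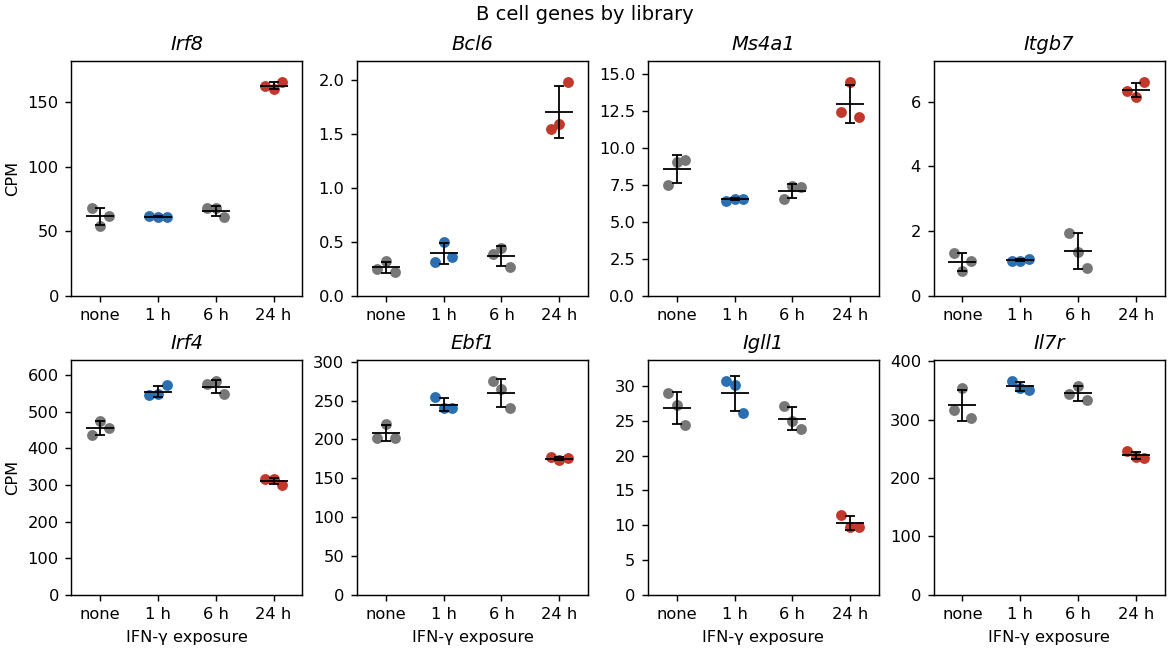
CPM (y axis) of 8 B cell genes in each library by IFN-γ exposure (x axis), with points for libraries and bars for the mean ± SD (n = 3), red for 24 h, blue for 1 h and grey for groups given as reference. Irf8, Bcl6, Ms4a1 and Itgb7 stand higher after 24 h than after 1 h, and Irf4, Ebf1, Igll1 and Il7r lower.

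The B cell receptor list went both ways, with 11 higher and 13 lower of 40 tested (43 listed) and a median of -0.036. Cd79a and Ighm were not called (adjusted p = 0.645 and 0.903). Fcmr, a receptor for IgM, measured 1.03, 1.23 and 1.23 CPM against 3.66, 3.80 and 4.08 CPM (-1.72 ± 0.16, adjusted p = 1.32e-09). The kinase gene Prkcb and the adaptor gene Pik3ap1 were lower, at -0.76 ± 0.10 and -0.72 ± 0.06. The kinase gene Syk, chosen after its value was seen, was lower, at -0.36 ± 0.04. Ms4a1, which encodes CD20, measured 12.4, 14.4 and 12.1 CPM against 6.43, 6.56 and 6.56 CPM, higher by 0.99 ± 0.10 (adjusted p = 8.78e-09). Its unstimulated mean of 8.57 CPM lay between the groups, and the 24 h libraries exceeded unstimulated cells by 0.595 on the log2 scale (edgeR adjusted p = 4.22e-05). The phosphatase Ptprc (CD45) and the scaffold Bank1 were higher by 0.46 ± 0.04 and 0.41 ± 0.04.

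Surface molecules of costimulation, adhesion and homing were higher in 11 and lower in 4 of 32 tested (42 listed), with a median of 0.109. Itgb7, the β7 integrin chain of gut homing, measured 6.35, 6.15 and 6.60 CPM after 24 h and 1.09, 1.07 and 1.14 CPM after 1 h, a log2 difference of 2.53 ± 0.21 (adjusted p = 1.85e-10). The costimulatory ligand Cd86 measured 3.90, 2.93 and 4.13 CPM against 0.562, 1.15 and 0.637 CPM, a log2 difference of 2.22 ± 0.25 (adjusted p = 7.58e-08), and the integrin ligand Icam1 was higher by 1.12 ± 0.08. Cd40, the receptor of T cell help and chosen after its value was seen, was higher by 1.00 ± 0.17. The ectoenzyme gene Cd38 was lower, at -0.33 ± 0.07, and is also counted among the enzymes known as IFN-γ targets. Plasma cell markers, 9 of 14 tested, had 3 higher and 1 lower. The elongation factors Eaf2 and Ell2 were higher by 1.31 ± 0.08 and 0.68 ± 0.17, and Jchain had 2 counts over the 24 h and 13 over the 1 h libraries. Derl3, also in the unfolded protein response list, was higher by 0.425 ± 0.137 (edgeR adjusted p = 0.0289). That call was lost without 1 h replicate 1 or 2 or 24 h replicate 2 or 3 (adjusted p 0.0533 to 0.175). The marker called lower was Slamf7, at 204 ± 3.68 against 268 ± 11.3 CPM (-0.39 ± 0.04, edgeR adjusted p = 3.67e-08). The whole list summed to 506 to 524 CPM in the 24 h and 524 to 557 CPM in the 1 h libraries.

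Markers of cells other than B lymphocytes were counted beside these results. Of 18 myeloid markers 5 were tested, with 2 higher and 1 lower. The whole list summed to 44.5 to 49.4 CPM in the 24 h and 12.4 to 13.5 CPM in the 1 h libraries, and Mpeg1, a pore-forming protein of phagocytes, made up most of it at 42.1, 38.3 and 41.6 CPM against 6.15, 6.36 and 5.49 CPM (2.76 ± 0.09, adjusted p = 1.48e-20). Mpeg1 was also present in the unstimulated line, at a mean of 6.62 CPM. The defining markers Elane, S100a8, S100a9 and Csf3r had 0 counts in all 6 libraries, 7 of the 18 did so, and the integrin gene Itgam was lower, at -0.96 ± 0.19. Itgam averaged 1.27 CPM after 24 h, 2.46 CPM after 1 h and 1.70 CPM in unstimulated cells, against which neither group was called. The other marker called higher was the Fc receptor gene Fcgr3, at 0.908 ± 0.276 against 0.333 ± 0.0885 CPM (1.45 ± 0.36, adjusted p = 0.00432), which did not pass the filter of at least 1 CPM in 3 libraries. T and NK cell markers summed to 0.966 to 1.46 CPM after 24 h and 1.13 to 1.27 CPM after 1 h, with 1 of 18 tested, 9 at 0 in all 6 libraries and Cd3e at 2 and 0 counts. Stromal markers, 2 of 13 tested, summed to 90.1 to 93.9 and 61.2 to 64.3 CPM. Nearly all of that was Pecam1, which B cells also express and which was higher by 0.56 ± 0.05, while Col1a2, Col3a1 and Dcn were at 0. The part of other cell types in the results above was not tested.

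Several of the largest falls were in genes of no list. Rasd1, a Ras-like G protein, measured 2.44, 2.24 and 2.11 CPM after 24 h and 9.18, 8.51 and 6.34 CPM after 1 h, a log2 difference of -1.82 ± 0.17 (adjusted p = 2.1e-08). The ATP-gated channel gene P2rx3 measured 8.07, 8.71 and 8.30 CPM against 20.1, 22.1 and 22.9 CPM (-1.38 ± 0.07, adjusted p = 6.63e-15). Tmprss3, a membrane serine protease, measured 45.9, 48.7 and 48.3 CPM against 111, 105 and 113 CPM, so that the 24 h libraries held 43.5% of the fitted 1 h level. In these 3 genes the 1 h means were close to those of unstimulated cells, 7.30, 22.1 and 108 CPM. Atp1b1, a sodium pump subunit, differed from them in that the 1 h libraries, at 66.4, 71.8 and 63.6 CPM, were above the unstimulated mean of 48.5 CPM (adjusted p = 2.14e-05) and the 24 h libraries, at 30.5, 29.8 and 31.4 CPM, below it (adjusted p = 5.25e-10).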

How the data were processed

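The authors deposited a table of read counts per gene for 12 libraries. Tools named in the submitters' processing notes are featureCounts 1.4.3-p1, STAR 2.5.2a and Picard, with the build mm10. Not given in the sources used here are annotation release, filters and strand setting. The table's header has doubled separators, so columns were taken in the order of the header's names. Of counts from 1 to 20, between 69.9% and 73.9% in each library were even, as when both mates of a pair are counted. Genes with near-identical copies (the Gbp and H2 families, Tgtp1 and Tgtp2, genes with processed pseudogenes such as Gapdh) and genes with an overlapping or antisense partner are uncertain, since reads may be split or shared. Gene IDs were paired with symbols and GRCm38 coordinates through GENCODE M21 (53274 of 53379 IDs with a symbol), and promoter sequences came from RefSeq (GRCm38.p6).

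Genes were kept by filterByExpr and counts scaled by TMM (edgeR 4.0.16, limma 3.58.1, R 4.3.3). The main test was edgeR's robust quasi-likelihood F test over all 12 libraries in 4 groups (8 residual degrees of freedom), with the contrast 24 h minus 1 h and Benjamini-Hochberg adjustment over 14299 genes. Standard errors are approximate, from dividing each log2 fold change by √F. The main test was tested on simulated data. In 5 draws of simulated counts for this comparison, 200 genes were changed, all taken from genes above a floor in mean count. The test called 99 to 100 of 100 genes changed by 2 on the log2 scale and 75 to 81 of 100 changed by 0.5. Changes in genes of low count and changes under 0.5 were not tried. Of the genes called, 4.79% to 10.5% (mean 7.22%) had not been changed, above the 5% that the threshold names, and the tolerance for this share was set after it was seen. No 2 libraries of a group agreed within sampling noise (chi-square per degree of freedom 2.53 to 8.48). Alternatives were DESeq2 1.42.0, limma-voom, other size factors, other filters, halved counts, the 6 libraries alone, a replicate block, stricter thresholds and each library left out in turn.

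The comparison, the gene lists, the motifs and the genes in figures were chosen with earlier results of these data known. Genes named in the text were a fixed set of 34, up to 3 rises and 3 falls per list, every called marker of other cell types, and the 12 largest rises and falls over all genes, with no overlap between groups and at least 1 CPM on average. Not all of these are printed (results for a few of them are not reported here), and genes outside the rule are marked as such.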

Additional observations from a re-analysis of the deposited data

How the results depend on the processing

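With 3 libraries a group, each result rests on few libraries, at a depth of at least 55520205 counts in each library compared. Leaving out 1 library at a time gave 1149 to 1712 genes higher and 744 to 1341 lower. The same fits gave 15 to 19 unfolded protein response genes higher, 13 to 20 cholesterol genes higher, 9 to 13 p53 genes higher, 6 to 16 ribosome biogenesis genes lower and 8 to 12 replication genes lower. They gave 9 to 12 B cell transcription factors lower, 9 to 12 receptor genes higher and 11 to 13 lower, 7 to 8 precursor genes lower and 11 to 12 surface genes higher.

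At an adjusted p under 0.01, 675 genes were lower, 7 of them in the ribosome biogenesis list. With at least a 2-fold difference required, 300 genes were higher and 73 lower. That rule left 0 genes higher in the unfolded protein response, cholesterol, p53 and receptor lists, 0 lower among ribosome biogenesis, replication and B cell transcription factor genes, 1 receptor gene and 2 precursor genes lower and 3 surface genes higher. DESeq2 called 1552 genes higher and 1317 lower. Of 148 named genes that were called, 115 were called in each of the 20 alternative fits, 32 lost the call in at least 1, 1 (Fcgr3) was not tested in 1 of them, and none changed sign past the threshold.

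Replicate numbers are shared between groups in the labels. Deviations of same-numbered libraries of the 24 h and 1 h groups correlated at -0.01, -0.021 and 0.012 across genes, so the numbers were not taken to pair the samples. A fit with the replicate number as a block called 1490 genes higher and 1300 lower, and oxidative phosphorylation genes higher went from 4 to 11 with it, as they did with the filter of at least 1 count in any library.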
